A study of Mus musculus with 18 samples.

Results

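Mononucleated cardiomyocytes of the adult mouse heart were compared with mononucleated cardiomyocytes of the E18.5 heart, the fetal heart shortly before birth. The comparison rests on 3 adult and 3 E18.5 libraries, 6 of the 18 libraries of the series, and covers all 12048 listed genes. The other 12 libraries came from mononucleated cells at P7 and from binucleated cells at the same 3 ages. Every library, at every age, was made from mice that carry both Mlc2vcre and R26REYFP. In such mice the ventricular myosin light chain gene Myl2 drives Cre recombinase. Cre turns on a yellow fluorescent protein in cells that use this promoter. By this design atrial cells and cardiomyocytes without Myl2 activity stay unmarked, which does not show that the libraries were free of them. Reads of atrial markers and of markers of other cells were present and are given below. The labels do not give the age of the adult animals, how cells with 1 nucleus were told from those with more, or the number of animals behind a library. The labels number the replicates but do not call them separate animals or litters, so the p-values measure the spread between these libraries, which may be technical.

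Fetal cardiomyocytes divide, work at low oxygen and draw much of their energy from glucose and lactate. After birth they leave the cell cycle, exchange fetal for adult isoforms of the contractile proteins, build T-tubules and a dense mitochondrial network, and turn to fatty acids. In the mouse most of them also become binucleated in the days after birth, and the mononucleated cells of the adult heart are the minority that did not. All 12 ventricular cardiomyocyte markers were among the listed genes, which by itself does not test the label. Their summed level was 38140 to 43470 CPM in the E18.5 libraries and 48990 to 52150 CPM in the adult ones. As a share of total counts it was 4.395% to 4.828% at E18.5 and 4.187% to 4.536% in the adult. Of these markers 6 were higher in the adult and 2 lower, Irx4 and Myh7.

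Levels are given as normalised CPM, computed from the whole read counts behind the deposited log2 values. Counts were divided by an effective library size taken from the deposited factors, not by the total count. These sizes were 22157976 to 26151835 at E18.5 and 14466479 to 18220049 in the adult. Against shares of total counts, such CPM are therefore raised in the adult relative to E18.5. The E18.5 libraries held 19951367 to 22690952 counts and the adult ones 16927731 to 20946659. Replicates correlated at 0.954 to 0.957 at E18.5 and at 0.970 to 0.974 in the adult, and libraries of different age at 0.724 to 0.751. The 100 most abundant genes took 19.4% to 20.7% of all counts at E18.5 and 25.2% to 26.4% in the adult. E18.5 binucleated replicate 1 stood apart from its group (correlations from 0.884) and enters the net change through the shared estimate of spread; without it 3836 genes were higher and 3977 lower, against 3151 and 3336 with it. Markers of other cells also moved with age, and their part in the results was not tested. The 18 endothelial markers summed to 29.9 to 48.9 CPM at E18.5 and 150 to 193 CPM in the adult, and 13 of them were higher in the adult. Of 8 leukocyte markers 7 were higher, their sums were 3.67 to 3.89 and 19.01 to 31.4 CPM, and 3 of them were at 0 counts in every E18.5 library. The 6 erythroid and platelet markers went the other way, from 39.9 to 68.4 CPM at E18.5 to 0.494 to 12.7 CPM in the adult, and so did the 8 epicardial and neural crest markers, from 42.4 to 46.9 CPM to 5.87 to 10.6 CPM. The 13 fibroblast markers went in sum from 682 to 752 CPM to 154 to 227 CPM, with 5 members higher and 3 lower (2 to 5 higher when single libraries were left out). That fall of the sum was carried by Gsn, an actin-severing protein; the other 12 markers summed to 64.9 to 116 CPM at E18.5 and 105 to 144 CPM in the adult, which overlap. In bulk RNA, fewer cells of a type and less RNA per cell cannot be told apart.

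Between the fetal and the adult state, 3151 genes were higher in the adult (26.2% of all genes tested) and 3336 were lower (27.7%), at a limma adjusted p below 0.05. Counts of list members that rose or fell are to be read beside these shares. With a change of at least 2-fold the counts were 1868 higher (15.5%) and 2160 lower (17.9%). A change of at least 16-fold was met by 321 higher (2.66%) and 501 lower genes (4.16%). The 3 adult values lay outside the range of the 3 E18.5 values for 4001 genes that were higher (33.2%) and 4158 that were lower (34.5%). At an unadjusted p below 0.05 there were 7060 genes. The deposited factors centre the median gene near 0 (median log2 fold change −0.01). When libraries were scaled by their total count instead, 1951 genes were higher (16.2%) and 5119 lower (42.5%), with the median shifted by −0.39, and changes below are relative to the deposited centring.

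Ucp3 and Fbp2 headed the 12 genes with the largest increases among those above the lowest 25% by mean level. Ucp3 (ENSMUSG00000032942), an uncoupling carrier of muscle mitochondria, was at 0 counts in all 3 E18.5 libraries, at 117, 55.9 and 72.2 CPM at P7 and at 108, 215 and 134 CPM in the adult. The P7 and adult libraries overlapped, and the adult level was at least 3534-fold higher than that of E18.5 when 3 counts over the group are taken as the floor. Fbp2 (ENSMUSG00000021456), the muscle fructose bisphosphatase, measured 0.0427, 0.0765 and 0 CPM at E18.5, 44.9, 56.9 and 74.8 at P7, and 100.5, 134 and 113 in the adult (log2 fold change 11.12 ± 0.56 SE, adjusted p = 1.31e-10 by limma). Its E18.5 values lie near 0 counts, so the size of this change depends on the 0.5 added to each count. Art1, an ADP-ribosyltransferase of the cell surface in striated muscle, had 0.983, 0.497 and 1.35 CPM at E18.5 and 385, 457 and 399.8 in the adult (log2 fold change 8.85 ± 0.26 SE, adjusted p = 9.43e-13 by limma); 36.5% of its exonic bases are shared with Chrna10 on the opposite strand in the annotation. Myot, the Z-disc protein myotilin, rose from 0.688 ± 0.154 to 162 ± 16.3 CPM (7.85 on the log2 scale).

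Nuclear receptors were among these 12 as well: Rxrg, a retinoid X receptor, rose from 1.32 ± 0.894 to 217 ± 15.5 CPM (SD, n = 3), and Thrb, a thyroid hormone receptor, from 0.843 to 56.2 CPM. The remaining 6 were Arhgap20, a GTPase activating protein (159.8-fold), the RNA-binding protein gene Csdc2 (140.2-fold), the alpha tubulin gene Tuba8 (136-fold), the non-muscle myosin gene Myh14 (122-fold), the mitochondrial carrier gene Slc25a34 (118-fold) and Mapt, which encodes the microtubule protein tau (116-fold). The E18.5 and adult values of all 12 were apart by the rule that named them.

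Among the 12 largest decreases, Tnni1, the slow skeletal troponin I that serves the fetal heart, stood first. Tnni1 (ENSMUSG00000026418) measured 2438, 2244 and 2450 CPM at E18.5, 1113, 1325 and 1491 at P7, and 0.878, 0.622 and 2.14 in the adult (log2 fold change −11.09 ± 0.35 SE, adjusted p = 1.41e-12 by limma). Igf2 (ENSMUSG00000048583), the fetal insulin-like growth factor, had 521, 453 and 481 CPM at E18.5, 55.01, 48.2 and 58.6 at P7, and 0.384, 0.346 and 0.306 in the adult (log2 fold change −10.34 ± 0.30 SE, adjusted p = 9.43e-13 by limma). A same-strand annotated transcript shares 62.8% of its exonic bases. Mest, an imprinted gene of the hydrolase family, had 492, 476 and 444 CPM at E18.5, 62.7, 37.2 and 49.7 at P7, and 1.43, 0.691 and 1.47 in the adult (log2 fold change −8.66 ± 0.26 SE, adjusted p = 9.43e-13 by limma). In all 3 genes the P7 libraries lay between the E18.5 and the adult ones without overlap. Vash2, a tubulin carboxypeptidase of the vasohibin family, fell from 149 to 0.325 CPM, Myl7, the atrial regulatory light chain, from 189 to 1.74 CPM, and the lactate exporter gene Slc16a3 from 142 to 0.586 CPM. The other 6 were cell cycle genes: Cdc20, Ccnb1, Hmmr, Ccna2, Ccnb2 and Birc5.

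**Figure D1:**
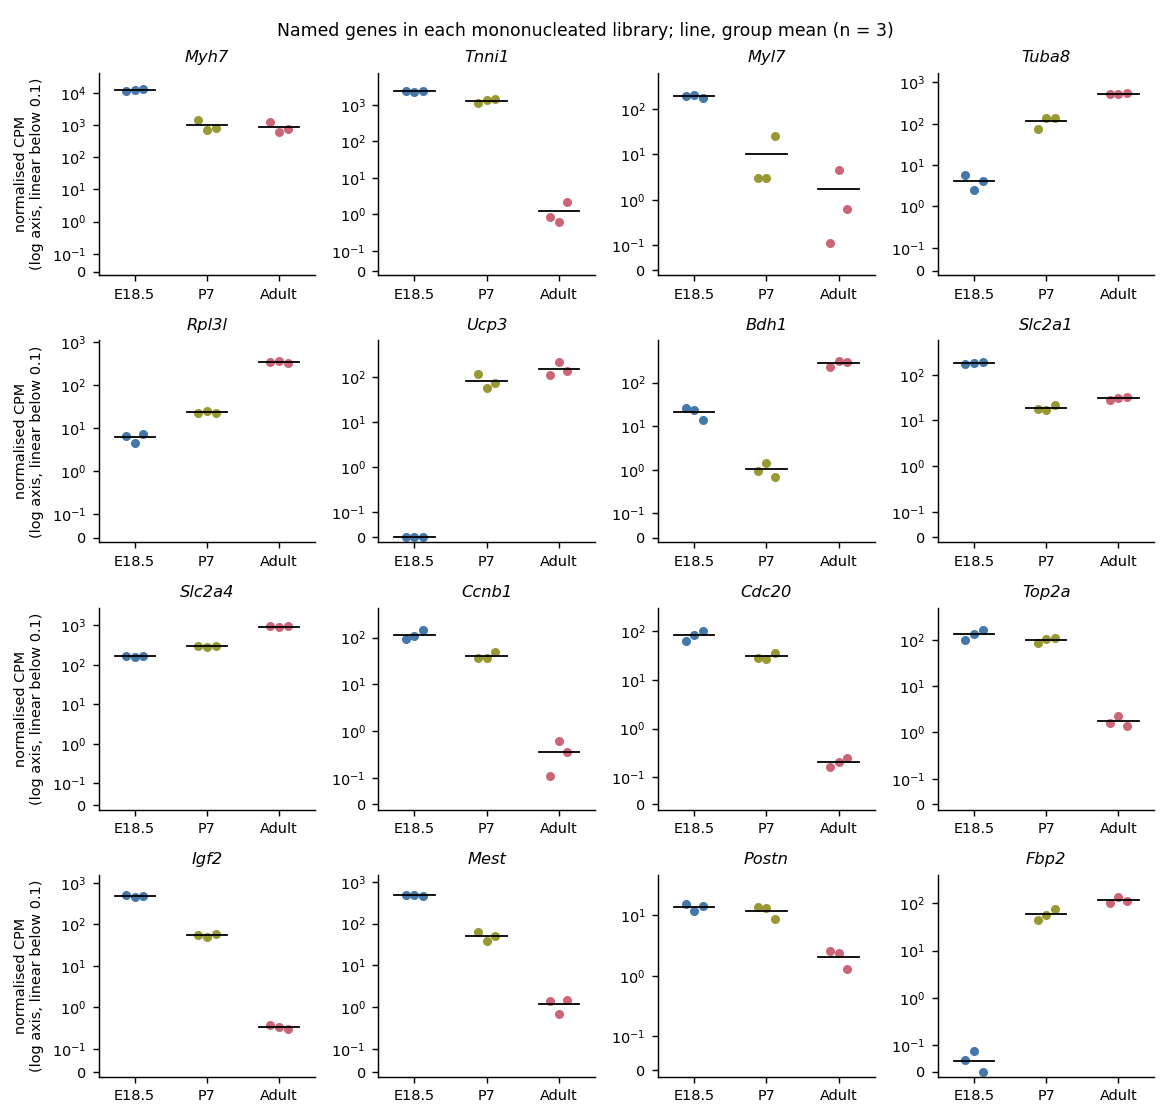
Normalised CPM of 16 named genes in each mononucleated library of the 3 ages, on a log axis that is linear below 0.1. Points are libraries and lines are group means (n = 3): Tnni1 was at 1113 CPM or more at P7 and at 2.14 CPM or less in the adult, whereas Myh7 was already near its adult level at P7.

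Of 13 listed sarcomere genes known from the fetal heart or from smooth and skeletal muscle, 10 fell and 2 rose (median log2 fold change −3.89, against −0.01 over all genes). Myh7, the slow beta-myosin heavy chain, had 11550, 12120 and 13530 CPM at E18.5, 1399, 700.5 and 813 at P7, and 1243, 625 and 753 in the adult (log2 fold change −3.89 ± 0.41 SE, adjusted p = 7.21e-07 by limma). Its P7 libraries overlapped the adult ones and lay far below all E18.5 libraries. Myl4, the atrial and fetal essential light chain, fell from 326 ± 65.2 to 3.57 ± 1.13 CPM, and the smooth muscle proteins Myl9 and Cnn1 fell from 1140 to 58.4 CPM and from 64.98 to 0.0204 CPM. The adult level of Cnn1 lies near 0 counts. Acta2, smooth muscle actin, decreased from 1152 to 249.6 CPM. The 2 that rose were Acta1, skeletal actin (log2 fold change 2.05), and Myl1, a fast-muscle light chain (1.53).

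Of 30 listed sarcomere genes of the adult heart, 19 rose, 1 fell (Synpo2l, −1.81) and 10 did not pass (median log2 fold change 0.57). Under quantile normalization, which pulls the most abundant genes of the libraries together, 7 rose and 7 fell. Xirp2, an actin-binding protein of the intercalated disc, had 7.86, 8.298 and 4.87 CPM at E18.5, 77.3, 86.3 and 83.4 at P7, and 361, 265 and 321 in the adult (log2 fold change 5.51 ± 0.33 SE, adjusted p = 8.30e-10 by limma). Tcap, the titin cap at the Z-disc, had 260.0, 259 and 220.5 CPM at E18.5 and 1373, 1673 and 1537 in the adult (log2 fold change 2.63 ± 0.17 SE, adjusted p = 2.28e-09 by limma), Cmya5, a costameric anchoring protein, rose from 93.7 to 892 CPM, and the thin filament assembly protein Lmod2 from 66.7 to 386 CPM. Myh6, the fast alpha-myosin heavy chain, had 8585, 7982 and 11180 CPM at E18.5, 14750, 15170 and 13770 at P7, and 22770, 18560 and 19610 in the adult (log2 fold change 1.15 ± 0.34 SE, adjusted p = 0.0103 by limma). With total-count scaling it did not pass (0.75, adjusted p = 0.0859).

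Pairs of related genes give a ratio inside each library that a factor per library cannot move. Of 20 pairs in which an adult or muscle form is known beside a fetal or general form, the 3 adult ratios lay apart from the 3 E18.5 ratios in 20, higher in 19 and lower in 1. Among all single genes, 33.2% lay apart as higher and 34.5% as lower. No share over other pairs of genes was taken. The ratios are of reads and not per length, so only their change is read. The log2 ratio of Tnni3, the adult cardiac troponin I, to Tnni1 was −0.50 ± 0.00 at E18.5, 0.75 ± 0.07 at P7 and 11.60 ± 0.95 in the adult (SD, n = 3), almost all of it after P7. For Myh6 over Myh7 the values were −0.43 ± 0.16 at E18.5, 3.97 ± 0.53 at P7 and 4.60 ± 0.36 in the adult, with most of the change before P7. The muscle elongation factor Eef1a2 over Eef1a1 went from −5.98 to 0.34, and Rpl3l, a ribosomal protein confined to striated muscle, over Rpl3 from −5.31 to 2.72. Tuba8 over Tuba1a moved from −7.00 to 5.22, the largest shift of these pairs.

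Muscle forms of respiratory chain subunits also gained on their general forms. The log2 ratio moved from 0.17 to 3.23 for Cox6a2 over Cox6a1, from −1.5 to 1.10 for Cox8b over Cox8a and from −1.28 to 0.13 for Cox7a1 over Cox7a2, with SDs of at most 0.09 in either group. The ADP/ATP carrier Slc25a4 over Slc25a5 went from 0.97 to 2.17, the creatine kinase Ckm over Ckb from 0.97 to 3.71, and the insulin-responsive glucose transporter Slc2a4 over Slc2a1 from −0.11 to 4.90. The 1 ratio that fell was cardiac over skeletal actin, Actc1 over Acta1, from 5.42 to 3.70. Cpt1b, the muscle carnitine palmitoyltransferase, shares 81.4% of its exonic bases with another annotated gene on its strand, so its ratio to Cpt1a is uncertain and is not drawn.

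**Figure D2:**
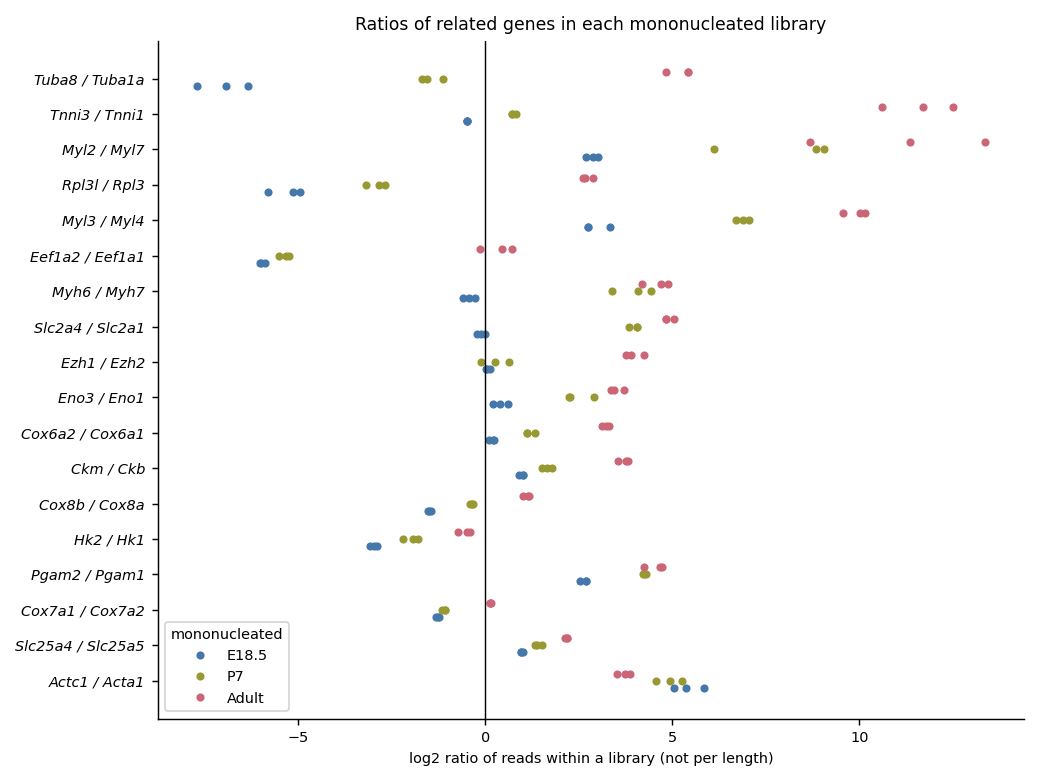
The log2 ratio of reads of 18 pairs of related genes within each mononucleated library, on the x axis, with 3 points per age. The adult ratios lie to the right of the E18.5 ratios in every pair drawn except Actc1 over Acta1, and the P7 points fall near the adult ones for Myh6 over Myh7 and near the fetal ones for Tnni3 over Tnni1.

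Calcium release and uptake by the sarcoplasmic reticulum drive each beat. Of 34 listed genes of calcium cycling and the T-tubule, 19 rose and 9 fell (median log2 fold change 0.49); with total-count scaling 13 rose and 11 fell. Hrc, a calcium-binding protein of the reticulum lumen, had 59.9, 56.4 and 60.2 CPM at E18.5, 131, 136 and 138 at P7, and 516, 583 and 534 in the adult (log2 fold change 3.21 ± 0.15 SE, adjusted p = 5.90e-11 by limma). Tmem38a, a counter-ion channel of the reticulum, rose from 324 ± 16.1 to 974 ± 22.1 CPM (SD, n = 3), and Cavin4, a caveolar protein of muscle, from 82.8 to 226 CPM. Pln, the brake on the reticulum calcium pump, had 2397, 2064 and 2261 CPM at E18.5 and 4566, 5363 and 5210 in the adult; 59.6% of its exonic bases lie opposite another annotated transcript. The release channel gene Ryr2 had 409, 360.1 and 403 CPM at E18.5 and 1058, 737 and 789 in the adult (log2 fold change 1.13 ± 0.17 SE, adjusted p = 3.17e-05 by limma). The adult values lay above the E18.5 values in each of these genes. Ppp1r1a, an inhibitor of protein phosphatase type 1, fell from 48.1 ± 3.84 to 2.88 ± 0.0868 CPM.

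Ion channels of the sarcolemma set the action potential. Of 32 listed, 17 rose and 4 fell (median log2 fold change 1.34). Kcnv2, a silent potassium channel subunit, was at 0 counts in all 3 E18.5 and all 3 P7 libraries and at 23.3, 13.7 and 15.7 CPM in the adult, at least 429-fold higher. Clcn1, the chloride channel of skeletal muscle, was at 0.171, 0 and 0 CPM at E18.5 and 11.6, 6.29 and 10.8 CPM in the adult. Kcnj3, an atrial inward rectifier subunit, rose from 10.8 to 59.3 CPM. The 4 that fell were Kcne1, Gjc1, Gja5 and Kcna4. Kcne1, the partner of the slow delayed rectifier, had 335, 266 and 365 CPM at E18.5, 623, 621 and 701 at P7, and 44.8, 65.4 and 30.7 in the adult. It was highest in every P7 library and lowest in every adult one.

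Adrenergic and muscarinic signalling tunes rate and force; 13 of 27 listed genes rose and 5 fell. Adra1a, an alpha-1 adrenergic receptor, was at 0 counts at E18.5 and at 36.1, 21.9 and 26.3 CPM in the adult, at least 685-fold higher. Adra1b, its relative, had 25.4, 23.6 and 30.9 CPM at E18.5, 83.9, 71.9 and 83.3 at P7, and 104, 97.8 and 96.9 in the adult (log2 fold change 1.91 ± 0.14 SE, adjusted p = 7.33e-09 by limma), and the muscarinic receptor Chrm2 rose from 120.3 to 366 CPM. Gnai3, an inhibitory G protein subunit, fell from 74.4 to 20.1 CPM. With total-count scaling 8 rose and 7 fell. Of 35 genes of the intercalated disc and costamere 15 rose and 6 fell (9 and 9 with total-count scaling). Itga7, the laminin-binding integrin of muscle, had 33.1, 32.01 and 30.2 CPM at E18.5, 338, 298 and 271 at P7, and 517, 417 and 454 in the adult (log2 fold change 3.86 ± 0.23 SE, adjusted p = 1.02e-09 by limma), and the sarcoglycans Sgcb and Sgca rose by 1.98 and 2.17 on the log2 scale.

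Fatty acid uptake and oxidation supplies most of the energy of the adult heart. Of 40 listed genes 35 rose, 1 fell (Acsl3, an acyl-CoA synthetase, −3.43) and 4 did not pass (median log2 fold change 1.53). The number of higher members was 32 with total-count scaling and 32 with quantile normalization. Decr1, which prepares unsaturated fatty acids for oxidation, had 153, 136 and 149 CPM at E18.5, 439.7, 515 and 501 at P7, and 703, 797 and 722 in the adult (log2 fold change 2.34 ± 0.10 SE, adjusted p = 1.92e-11 by limma). Slc27a1, a fatty acid transporter, had 47.4, 47.8 and 57.9 CPM at E18.5, 217, 176 and 164 at P7, and 394, 374 and 351 in the adult (log2 fold change 2.87 ± 0.12 SE, adjusted p = 1.93e-11 by limma). Lpl, the lipase that frees fatty acids from lipoproteins, had 1230, 1072 and 1127 CPM at E18.5, 1760, 1733 and 1938 at P7, and 6055, 6712 and 6605 in the adult (log2 fold change 2.5 ± 0.11 SE, adjusted p = 3.18e-11 by limma). In these 3 genes every adult library lay above every P7 library and every P7 library above every E18.5 library.

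Breakdown of ketones and branched-chain amino acids rose in 22 of 23 listed genes and fell in 0 (median log2 fold change 0.90), but not by a steady course. Bdh1, which interconverts the ketone bodies, had 26.2, 23.9 and 14.04 CPM at E18.5, 0.955, 1.45 and 0.698 at P7, and 224, 312 and 297 in the adult (log2 fold change 3.73 ± 0.29 SE, adjusted p = 1.91e-08 by limma). Each P7 library was below each E18.5 library, and each adult library above both. Oxct1, the enzyme that activates ketone bodies for use, had 811, 756 and 691 CPM at E18.5, 447, 621 and 575 at P7, and 2010, 2208 and 2228 in the adult (log2 fold change 1.51 ± 0.12 SE, adjusted p = 2.65e-08 by limma), and Ivd, of leucine breakdown, 316, 307 and 318 CPM at E18.5, 202, 232 and 227 at P7, and 1003, 974.7 and 958 in the adult. Both have the same order of ages as Bdh1, with the P7 libraries lowest. Bckdha, a subunit of the branched-chain ketoacid dehydrogenase, rose from 80.3 to 451 CPM; B3gnt8 on the opposite strand shares 61.7% of its exonic bases.

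The citric acid cycle list had 22 of 23 genes higher and 0 lower (median 0.70), and the nuclear-encoded respiratory chain 41 of 74 higher and 2 lower (median 0.62). These shifts are small and depend on the scaling. With total-count scaling 12 and 13 members rose, and with quantile normalization 5 rose and 6 fell in the cycle and 3 rose and 7 fell in the chain. The number of higher chain genes was also 23 without adult mononucleated replicate 2, 26 without adult mononucleated replicate 3 or E18.5 mononucleated replicate 2, and 69 without E18.5 binucleated replicate 1. Pdhx, a pyruvate dehydrogenase component, had 238, 226 and 222 CPM at E18.5, 276, 325 and 320.1 at P7, and 457, 479 and 469 in the adult (log2 fold change 1.03 ± 0.10 SE, adjusted p = 1.77e-07 by limma). Sucla2, a succinyl-CoA ligase subunit, rose from 761 to 1576 CPM, and Suclg2, its GTP-specific counterpart, from 268 to 460.5 CPM. Ndufs1, a core subunit of complex I, had 1116, 1015 and 1065 CPM at E18.5 and 1720, 1841 and 1880 in the adult (log2 fold change 0.77 ± 0.13 SE, adjusted p = 1.18e-04 by limma). With quantile normalization its change was 0.005 (adjusted p = 0.986). The 2 chain genes that fell were Cox6a1 and Cox8a, the general forms of subunits whose muscle forms rose. Cox6a1 fell from 507 ± 25.2 to 142 ± 9.41 CPM.

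Transcripts of the mitochondrial genome, a list of 11 listed genes added after the data were seen, were higher in 11 of 11, the median of their log2 fold changes being 1.74 and the range 1.34 to 2.19. They took 0.811% to 1.25% of counts at E18.5, 1.5% to 1.89% at P7 and 2.01% to 2.66% in the adult. The 11 stayed higher with total-count scaling and with quantile normalization. Of 62 mitochondrial ribosomal proteins 12 rose and 4 fell, lower shares than the 26.2% and 27.7% of all genes tested. With total-count scaling 3 rose and 9 fell. The number that rose was 7 without adult mononucleated replicate 2 and 36 without E18.5 binucleated replicate 1. Mrpl44 rose by 0.95 and Mrpl37 by 0.75 on the log2 scale, and Mrps27 fell by 0.60.

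Of 25 glycolysis genes 9 rose and 11 fell (6 and 17 with quantile normalization), against 26.2% and 27.7% of all genes tested. Slc2a1, the glucose transporter of fetal tissue, had 169, 181 and 188 CPM at E18.5, 17.8, 17.3 and 21.5 at P7, and 28.7, 31.3 and 33.0 in the adult (log2 fold change −2.53 ± 0.15 SE, adjusted p = 7.21e-10 by limma), and Slc2a4, the insulin-responsive transporter, 169.5, 156 and 172 CPM at E18.5, 296, 288 and 307 at P7, and 943, 899 and 936 in the adult (log2 fold change 2.48 ± 0.11 SE, adjusted p = 3.83e-11 by limma). The 3 ages do not overlap in either gene; Slc2a1 was lowest at P7 and Slc2a4 highest in the adult. Eno1, the general enolase, fell from 1101 to 214 CPM, and Pgk1, phosphoglycerate kinase, from 475 to 211 CPM. Of 17 energy buffer and carrier genes 13 rose and 2 fell, with 9 and 3 under total-count scaling and 8 and 4 under quantile normalization. Ckmt2, the mitochondrial creatine kinase of muscle, had 379.6, 308 and 332 CPM at E18.5, 961, 1173 and 1261 at P7, and 2973, 3624 and 3251 in the adult (log2 fold change 3.27 ± 0.15 SE, adjusted p = 4.98e-11 by limma), while Ckb, the brain form, fell from 652 to 104 CPM. Of 23 antioxidant genes 15 rose and 2 fell. Sod3, the extracellular superoxide dismutase, was at 0 counts at E18.5 and 30.3, 30.7 and 20.8 CPM in the adult, at least 651-fold higher, and Nqo1, a quinone reductase, rose from 28.4 to 168 CPM.

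**Figure D3:**
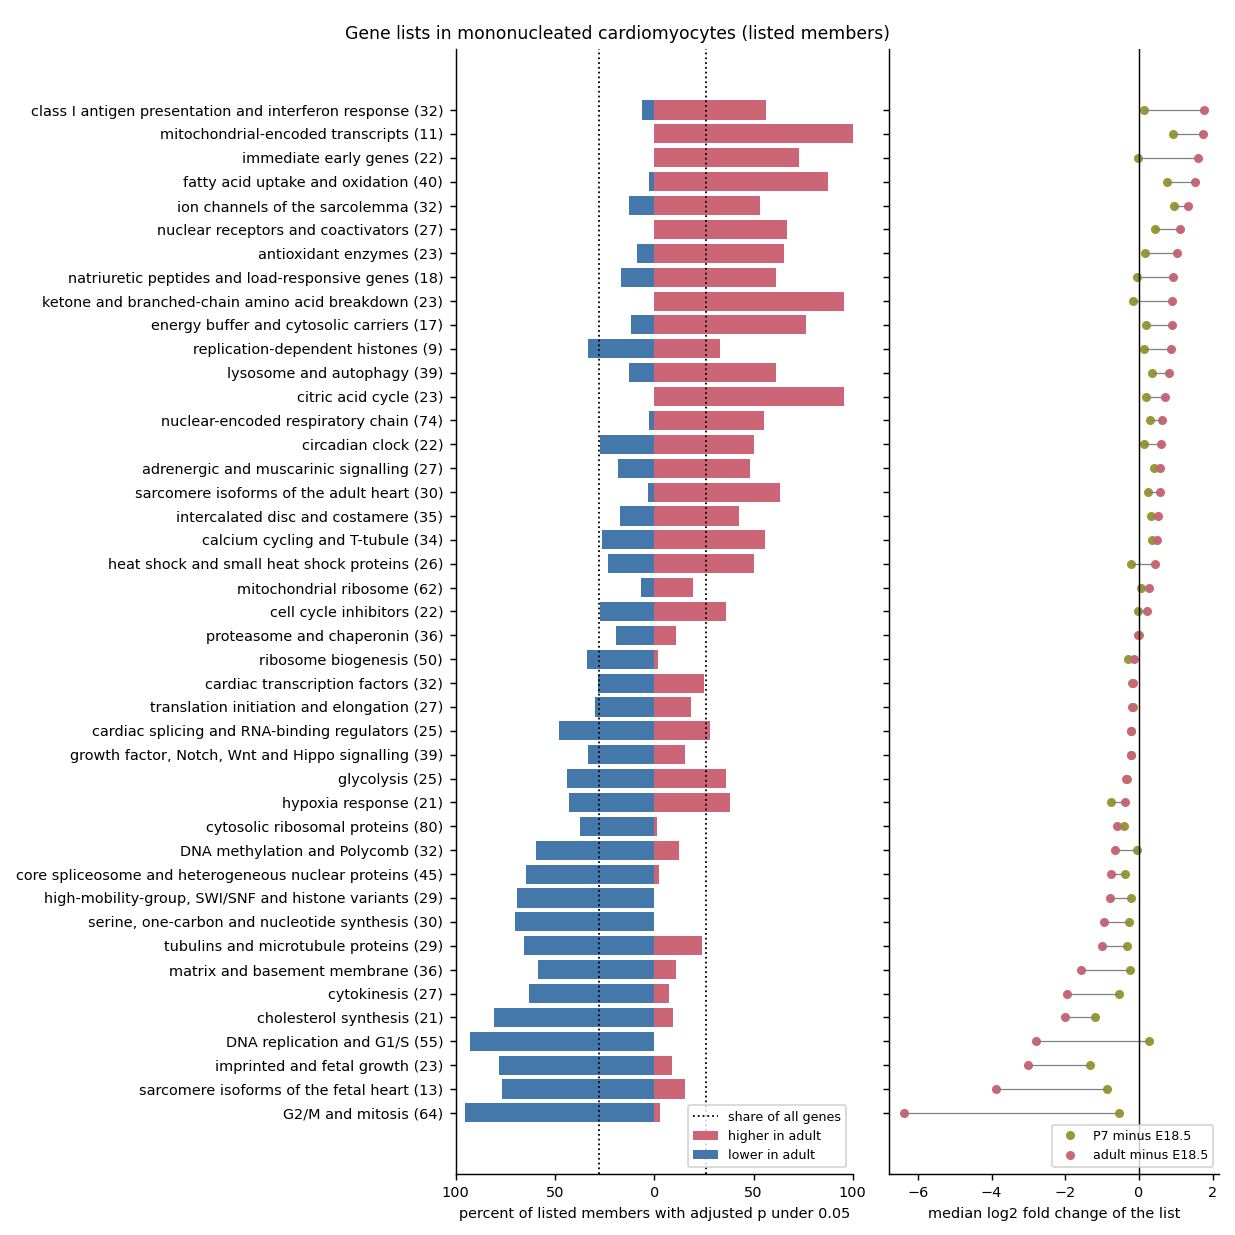
Left, percent of listed members that were higher or lower in adult than in E18.5 mononucleated cells at a limma adjusted p below 0.05, with the number of members in brackets and the shares of all genes, 26.2% and 27.7%, as dotted lines. Right, the median log2 fold change of each list from E18.5 to P7 and to the adult: G2/M genes changed by −0.56 at P7 and by −6.39 in the adult.

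The cell cycle was lowered almost throughout. Of 64 listed genes of G2/M and mitosis 61 fell and 2 rose (median log2 fold change −6.39), and of 55 genes of DNA replication and G1/S 51 fell and 0 rose (median −2.78). With total-count scaling the counts were 61 lower and 0 higher, and 54 lower and 0 higher. Ccnb1, the mitotic cyclin B1, had 94.6, 108 and 145 CPM at E18.5, 36.99, 36.3 and 49.3 at P7, and 0.110, 0.622 and 0.367 in the adult (log2 fold change −8.43 ± 0.41 SE, adjusted p = 8.80e-11 by limma), and Cdc20, an activator of the anaphase-promoting complex, 63.5, 85.9 and 103 CPM at E18.5, 28.2, 27.4 and 36.5 at P7, and 0.165, 0.207 and 0.245 in the adult (log2 fold change −8.46 ± 0.55 SE, adjusted p = 2.16e-09 by limma). In both genes the adult libraries were lowest and the P7 libraries between, with no overlap. Top2a, the DNA topoisomerase of dividing cells, had 97.7, 134 and 167 CPM at E18.5, 87.5, 105 and 108 at P7, and 1.59, 2.28 and 1.35 in the adult (log2 fold change −6.23 ± 0.23 SE, adjusted p = 5.11e-12 by limma), and its P7 values lay within or just below the E18.5 ones. Dlgap5, a spindle protein, was at 16.1, 20.8 and 27.9 CPM at E18.5 and at 0 counts in all 3 adult libraries, at least 350.4-fold lower.

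The 2 G2/M genes that were higher were Cenpf, a kinetochore protein, and Pttg1, the separase inhibitor securin. Cenpf had 51.1, 53.8 and 66.97 CPM at E18.5, 38.4, 26.6 and 30.8 at P7, and 92.9, 77.8 and 91.6 in the adult (log2 fold change 0.61 ± 0.15 SE, adjusted p = 0.00249 by limma), lowest at P7; with total-count scaling the difference was not called (0.22, adjusted p = 0.227). Pttg1 changed by 0.74 ± 0.27 SE on the log2 scale (limma adjusted p = 0.0296) and was not called with total-count scaling (0.35, adjusted p = 0.247). Mcm6, of the replicative helicase, had 204, 223 and 191 CPM at E18.5, 176, 273 and 266 at P7, and 3.68, 3.46 and 3.55 in the adult (log2 fold change −5.84 ± 0.29 SE, adjusted p = 1.03e-10 by limma), E2f1, the S-phase transcription factor, 50.5, 56.5 and 55.5 CPM at E18.5, 56.1, 79.2 and 73.6 at P7, and 1.21, 1.73 and 0.735 in the adult, and Rrm2, of ribonucleotide reductase, 236, 279.9 and 321 CPM at E18.5, 244, 331 and 369 at P7, and 7.36, 10.4 and 7.35 in the adult. In all 3 the P7 and E18.5 libraries overlapped, and the adult ones lay far below both. Ccna2, cyclin A2, fell from 154 ± 33.04 to 0.688 ± 0.336 CPM.

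Promoters of cell cycle genes carry known short elements, shown for 4 genes that fell and were chosen because their windows hold them. The windows run from 250 bases before to 50 bases after the gene start, 300 bases 5′ to 3′, from RefSeq on GRCm38.p6; the expression values were made on mm9. Capitals mark TTTGAA or its complement TTCAAA (the cell cycle homology region, CHR), CCAAT or ATTGG (the CCAAT box), and TTCCCGC or GCGGGAA (an E2F element). In Uhrf1 a CCAAT and an ATTGG overlap. The intervals are chr4:118437294-118437593, minus strand for Cdc20, chr9:70421505-70421804, minus strand for Ccnb2, chr11:99024140-99024439, minus strand for Top2a and chr17:56303087-56303386, plus strand for Uhrf1, which encodes the partner of the maintenance DNA methyltransferase.
Cdc20: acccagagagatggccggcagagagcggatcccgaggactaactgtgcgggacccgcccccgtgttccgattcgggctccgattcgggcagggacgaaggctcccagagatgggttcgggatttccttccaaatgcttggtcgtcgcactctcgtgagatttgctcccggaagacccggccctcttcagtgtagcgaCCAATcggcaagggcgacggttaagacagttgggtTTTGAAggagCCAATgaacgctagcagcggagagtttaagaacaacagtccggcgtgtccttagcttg
Ccnb2: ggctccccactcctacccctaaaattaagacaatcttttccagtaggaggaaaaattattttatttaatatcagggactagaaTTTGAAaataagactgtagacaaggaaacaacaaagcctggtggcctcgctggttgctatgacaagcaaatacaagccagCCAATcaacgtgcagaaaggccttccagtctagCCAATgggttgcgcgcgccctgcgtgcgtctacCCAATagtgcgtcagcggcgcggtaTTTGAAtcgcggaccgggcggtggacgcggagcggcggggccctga
Top2a: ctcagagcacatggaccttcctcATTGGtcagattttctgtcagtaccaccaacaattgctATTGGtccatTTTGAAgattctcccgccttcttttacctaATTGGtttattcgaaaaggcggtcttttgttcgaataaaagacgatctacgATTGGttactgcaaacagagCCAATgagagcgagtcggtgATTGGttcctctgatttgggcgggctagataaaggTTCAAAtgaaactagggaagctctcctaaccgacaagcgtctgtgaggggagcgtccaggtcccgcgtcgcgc
Uhrf1: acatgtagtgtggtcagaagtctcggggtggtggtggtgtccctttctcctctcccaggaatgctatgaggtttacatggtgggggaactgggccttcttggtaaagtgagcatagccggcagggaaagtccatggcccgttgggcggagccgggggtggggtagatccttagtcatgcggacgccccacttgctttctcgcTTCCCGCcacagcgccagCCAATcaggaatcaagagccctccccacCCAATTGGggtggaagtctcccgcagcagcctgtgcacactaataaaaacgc

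Of the 54 listed G2/M genes with a promoter window, 33 held the CHR letters on either strand (61.1%) and 40 the CCAAT box (74.1%). Over all 9376 listed genes with a window the shares were 14.1% and 43.3%. The E2F element TTCCCGC was in 15 of 42 replication genes with a window (35.7%) and in 10.2% of all. Over all genes that fell by at least 2-fold, 14.4% of 1672 held the E2F element and 16.8% the CHR, against 6.87% and 13.9% of the 1382 that rose by at least 2-fold. The CCAAT box was in 14 of 14 cholesterol synthesis genes with a window. The E-box CACGTG was in 10.6% of genes that rose and 10.8% of those that fell, and TCAAGGTCA, the letters of an estrogen-related receptor element, in 0.507% and 0.419%. Genes with several annotated starts were counted if any window held the motif, and a match describes letters only.

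Cytokinesis genes fell in 17 of 27 and rose in 2 (Anxa11 and Rock2). Anln, the contractile ring scaffold anillin, had 65.96, 91.6 and 134 CPM at E18.5, 43.1, 34.6 and 36.5 at P7, and 0.768, 1.11 and 0.980 in the adult (log2 fold change −6.58 ± 0.37 SE, adjusted p = 4.88e-10 by limma), and Racgap1, of the centralspindlin complex, 95.5, 118 and 125 CPM at E18.5, 45.2, 41.3 and 48.9 at P7, and 0.549, 1.45 and 0.245 in the adult (log2 fold change −7.50 ± 0.50 SE, adjusted p = 3.14e-09 by limma). Cep55, the abscission factor, had 20.4, 35.4 and 32.6 CPM at E18.5 and 0.274, 0 and 0 in the adult, and Iqgap3 fell from 57.1 to 0.222 CPM. Of 22 cell cycle inhibitors 8 rose and 6 fell (6 and 9 with total-count scaling); over all genes tested 26.2% were higher and 27.7% lower. Ccng1, a p53 target, had 579.6, 587 and 584 CPM at E18.5 and 2266, 2105 and 2372 in the adult (log2 fold change 1.94 ± 0.14 SE, adjusted p = 8.68e-09 by limma) and Gadd45a, of the DNA damage response, rose from 5.49 to 59.0 CPM. Cdkn1c, the imprinted p57 inhibitor, had 33.9, 38.5 and 31.7 CPM at E18.5, 5.99, 4.38 and 6.34 at P7, and 4.12, 4.98 and 4.102 in the adult and Rbl1, the p107 pocket protein, 28.8, 32.96 and 29.5 CPM at E18.5, 24.9, 38.9 and 37.1 at P7, and 1.15, 0.899 and 1.16 in the adult. The drop of Cdkn1c was largely complete at P7, whereas the P7 values of Rbl1 overlapped the fetal ones. Of 9 replication-dependent histone genes 3 rose and 3 fell, and shared sequence makes this family uncertain.

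Synthesis of serine, one-carbon units and nucleotides fell in 21 of 30 genes and rose in 0 (median log2 fold change −0.96). Phgdh, the entry enzyme of serine synthesis, had 23.96, 39.8 and 36.01 CPM at E18.5, 4.08, 5.96 and 4.54 at P7, and 0.494, 0.484 and 0.306 in the adult (log2 fold change −6.18 ± 0.43 SE, adjusted p = 5.63e-09 by limma), Psat1, the next enzyme, 92.4, 100.3 and 87.01 CPM at E18.5, 31.2, 29.97 and 28.1 at P7, and 2.96, 4.29 and 2.88 in the adult (log2 fold change −4.80 ± 0.20 SE, adjusted p = 1.30e-11 by limma), and Tk1, thymidine kinase, 42.9, 48.3 and 49.6 CPM at E18.5, 29.96, 41.2 and 47.2 at P7, and 3.24, 4.63 and 5.33 in the adult. At P7 Phgdh and Psat1 lay below every E18.5 library; Tk1 overlapped the E18.5 range there. Cholesterol synthesis fell in 17 of 21 genes and rose in 2, Hsd17b7 and Fdft1 (median −2.01). Sqle, squalene epoxidase, had 77.5, 86.8 and 64.99 CPM at E18.5, 18.2, 32.8 and 23.04 at P7, and 0.933, 2.005 and 1.04 in the adult (log2 fold change −5.89 ± 0.36 SE, adjusted p = 1.13e-09 by limma). Msmo1, Idi1 and Fdps, of the same pathway, fell from 112 to 18.3 CPM, from 49.3 to 4.52 CPM and from 141 to 37.7 CPM. With total-count scaling 17 were lower and 0 higher.

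Cytosolic ribosomal proteins had 30 of 80 members lower and 1 higher (median log2 fold change −0.61). The number lower was 68 with total-count scaling, 68 without E18.5 binucleated replicate 1 and 18 without adult mononucleated replicate 1; many members have processed copies in the genome, so their reads are uncertain. The 1 that rose was Rpl3l, with 6.58, 4.36 and 7.36 CPM at E18.5, 22.4, 25.4 and 22.8 at P7, and 344, 367 and 326 in the adult (log2 fold change 5.85 ± 0.23 SE, adjusted p = 7.52e-12 by limma), while its general form Rpl3 had 235, 244 and 231 CPM at E18.5, 159.8, 164 and 210.3 at P7, and 46.5, 58.2 and 53.02 in the adult (log2 fold change −2.17 ± 0.17 SE, adjusted p = 2.73e-08 by limma). Rpl4 and Rpl15 fell by 1.64-fold and 1.899-fold. Of 50 ribosome biogenesis genes 17 fell and 1 rose (Wdr12), with 27 and 0 under total-count scaling and 11 lower without E18.5 mononucleated replicate 2; Polr1e, of RNA polymerase I, fell from 121 to 45.6 CPM and Fbl, the nucleolar methyltransferase fibrillarin, from 33.7 to 15.1 CPM. Of 27 translation factors 5 rose and 8 fell, against 26.2% and 27.7% of all genes tested; 3 rose and 18 fell with total-count scaling, and 3 and 15 with quantile normalization. Eef1a1, the general elongation factor, had 1117, 967 and 964 CPM at E18.5, 674, 742 and 817 at P7, and 35.3, 66.7 and 33.2 in the adult (log2 fold change −4.57 ± 0.23 SE, adjusted p = 1.21e-10 by limma), Eif4a1 fell from 384 to 204 CPM, and Eif4a2, its close relative, rose from 131 to 281 CPM.

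Of 45 core spliceosome and heterogeneous nuclear ribonucleoprotein genes 29 fell and 1 rose, Prpf19 (median −0.77). Srsf3, a splicing factor, had 356, 365 and 368 CPM at E18.5 and 157, 163 and 172 in the adult (log2 fold change −1.15 ± 0.12 SE, adjusted p = 5.28e-07 by limma), and Hnrnpab and Hnrnpf fell from 276 to 134 CPM and from 212 to 88.6 CPM. Among 25 RNA-binding regulators, 7 rose and 12 fell (4 and 15 with total-count scaling). Igf2bp1, a fetal mRNA-binding protein, had 18.2, 23.1 and 22.6 CPM at E18.5, 0.304, 0.792 and 0.756 CPM at P7 and 0 counts in the adult, at least 349-fold lower. Rbfox1 and Mbnl1, splicing regulators of muscle, rose from 5.52 to 43.4 CPM and from 109.5 to 319.8 CPM.

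Chromatin genes fell more often than they rose. DNA methylation and Polycomb genes fell in 19 of 32 and rose in 4 (median −0.66), and those of high-mobility-group proteins, SWI/SNF and histone variants fell in 20 of 29 and rose in 0 (median −0.78). Uhrf1 had 54.9, 56.1 and 57.3 CPM at E18.5, 59.1, 87.2 and 65.9 at P7, and 0.823, 2.005 and 0.490 in the adult (log2 fold change −5.86 ± 0.40 SE, adjusted p = 4.50e-09 by limma). Ezh2, the Polycomb methyltransferase of dividing cells, had 31.7, 38.7 and 31.4 CPM at E18.5, 29.96, 35.3 and 36.8 at P7, and 5.65, 6.71 and 4.65 in the adult (log2 fold change −2.58 ± 0.19 SE, adjusted p = 1.01e-08 by limma), and the demethylating enzyme Tet1 59.04, 65.9 and 64.6 CPM at E18.5, 69.4, 58.6 and 43.98 at P7, and 12.1, 8.85 and 12.1 in the adult. At P7 the libraries overlapped the E18.5 range for Ezh2 and Tet1 and lay above it for Uhrf1, and the adult libraries were lowest for all 3. Cbx7, a Polycomb reader, rose from 1.101 to 16.2 CPM, and Hmgb2 and Hmgn3, high-mobility-group proteins, fell from 122 to 11.1 CPM and from 73.4 to 8.17 CPM.

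Of 32 cardiac transcription factors 8 rose and 9 fell, near the shares over all genes tested, of which 26.2% were higher and 27.7% lower; with total-count scaling 5 rose and 12 fell. Hand1, a factor of the early left ventricle, had 7.13, 5.58 and 6.45 CPM at E18.5 and 0 counts in the adult, at least 104-fold lower. Hey2, a repressor of the compact ventricle, had 119, 101 and 109 CPM at E18.5, 19.02, 15.1 and 9.37 at P7, and 2.69, 2.56 and 4.65 in the adult (log2 fold change −5.09 ± 0.29 SE, adjusted p = 6.04e-10 by limma), and Irx4, the ventricular homeobox gene, fell from 138 to 52.6 CPM. Nuclear receptors and coactivators rose in 18 of 27 genes and fell in 0 (median 1.12; 15 higher and 1 lower with total-count scaling). Rora, a retinoid-related orphan receptor, rose from 15.8 to 50.7 CPM. Nr1d1, the clock repressor Rev-erb alpha, had 23.4, 32.9 and 54.5 CPM at E18.5, 35.1, 37.4 and 29.7 at P7, and 196, 187 and 212 in the adult (log2 fold change 2.51 ± 0.27 SE, adjusted p = 7.01e-07 by limma). The P7 and E18.5 libraries overlapped. Of 22 circadian clock genes 11 rose and 6 fell (6 and 7 with total-count scaling). Arntl, a core activator of the clock, had 17.9, 12.2 and 19.99 CPM at E18.5, 10.7, 12.8 and 6.98 at P7, and 37.5, 77.3 and 57.3 in the adult (log2 fold change 1.75 ± 0.31 SE, adjusted p = 1.48e-04 by limma). The labels do not give the hour at which tissue was taken.

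Imprinted and fetal growth genes fell in 18 of 23 and rose in 2, Impact and Igfbp5 (median −3.01). Besides Igf2 and Mest, Plagl1, a zinc finger regulator of the imprinted network, had 216, 186 and 215 CPM at E18.5, 84.8, 79.3 and 78.9 at P7, and 4.06, 10.7 and 9.796 in the adult (log2 fold change −4.76 ± 0.30 SE, adjusted p = 1.46e-09 by limma), and Igf2bp3, an Igf2 mRNA-binding protein, 38.8, 45.04 and 35.97 CPM at E18.5, 8.47, 11.3 and 8.84 at P7, and 0.274, 0.207 and 0.796 in the adult (log2 fold change −6.66 ± 0.38 SE, adjusted p = 4.95e-10 by limma). The P7 libraries of both lay below all E18.5 libraries, and the adult ones lower still. Growth factor, Notch, Wnt and Hippo genes rose in 6 and fell in 13 of 39, and rose in 11 without E18.5 binucleated replicate 1. Bmp7, a bone morphogenetic protein, had 193, 199 and 184 CPM at E18.5, 37.99, 37.6 and 37.1 at P7, and 4.45, 6.36 and 5.82 in the adult (log2 fold change −5.12 ± 0.18 SE, adjusted p = 3.33e-12 by limma), Sfrp1, a Wnt antagonist, 84.4, 88.9 and 90.8 CPM at E18.5, 10.5, 7.74 and 10.2 at P7, and 1.098, 1.04 and 1.102 in the adult (log2 fold change −6.31 ± 0.26 SE, adjusted p = 1.16e-11 by limma), and Tead2, a Hippo pathway transcription factor, 27.7, 32.9 and 28.4 CPM at E18.5, 20.02, 19.1 and 20.5 at P7, and 0.165, 0.0691 and 0.0612 in the adult (log2 fold change −7.92 ± 0.59 SE, adjusted p = 1.10e-08 by limma). In all 3 the P7 libraries lay between the other ages without overlap, nearer the fetal ones for Tead2.

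Tubulins and other microtubule proteins fell in 19 of 29 and rose in 7 (19 and 3 with total-count scaling). Tuba1a, an alpha tubulin of growing cells, had 470.2, 517 and 514 CPM at E18.5, 246, 403 and 293 at P7, and 12.3, 17.97 and 13.04 in the adult (log2 fold change −5.13 ± 0.18 SE, adjusted p = 2.95e-12 by limma), Tubb5 fell from 413 to 42.01 CPM, and Marcksl1 from 102 to 0.834 CPM. Tuba8 had 5.72, 2.45 and 4.197 CPM at E18.5, 76.1, 135 and 134 at P7, and 531, 512 and 556 in the adult (log2 fold change 7.09 ± 0.28 SE, adjusted p = 9.31e-12 by limma), the reverse course of Tuba1a. Matrix and basement membrane genes fell in 21 of 36 and rose in 4 (median −1.58). Col6a2, a type VI collagen chain, had 94.96, 84.2 and 118 CPM at E18.5, 69.6, 52.9 and 71.97 at P7, and 1.98, 3.802 and 3.0 in the adult (log2 fold change −5.10 ± 0.28 SE, adjusted p = 3.35e-10 by limma), Sparc, a collagen-binding protein, 387, 352 and 369 CPM at E18.5, 781, 699.6 and 893 at P7, and 62.6, 91.6 and 96.0 in the adult (log2 fold change −2.17 ± 0.19 SE, adjusted p = 7.55e-08 by limma), and Vcan, the fetal proteoglycan versican, 21.02, 21.7 and 22.5 CPM at E18.5, 119, 40.5 and 40.03 at P7, and 0.0549, 0 and 0.367 in the adult. Sparc was highest at P7 in every library, and so was Vcan. Postn, the matrix protein periostin of fibroblasts, fell from 13.8 to 2.07 CPM, while the fibroblast markers other than Gsn, whose sums are given above, overlapped between the ages.

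Lysosome and autophagy genes rose in 24 of 39 and fell in 5 (median 0.82; 20 and 10 with total-count scaling). Pink1, the mitophagy kinase, had 199, 178 and 209.8 CPM at E18.5, 486, 403 and 486 at P7, and 1325, 1327 and 1363 in the adult (log2 fold change 2.78 ± 0.13 SE, adjusted p = 5.41e-11 by limma), and the cathepsins Ctsd, Ctsb and Ctsf rose from 639 to 2336 CPM, from 379 to 1068 CPM and from 32.7 to 155 CPM. Heat shock and small heat shock proteins rose in 13 of 26 and fell in 6 (7 and 7 with quantile normalization); Hspb6 and Hspb8, small chaperones of muscle, rose from 280.5 to 1658 CPM and from 97.0 to 525 CPM, and their co-chaperone Bag3 from 121 to 499.9 CPM. Class I antigen presentation and interferon genes rose in 18 of 32 and fell in 2, Ifit2 and Psmb10 (median 1.77). H2-D1, a class I heavy chain, had 12.1, 11.4 and 14.1 CPM at E18.5, 11.03, 11.8 and 11.6 at P7, and 60.7, 52.3 and 43.9 in the adult (log2 fold change 2.05 ± 0.16 SE, adjusted p = 2.45e-08 by limma), and Tap2, the peptide transporter, 2.05, 2.41 and 3.25 CPM at E18.5, 3.86, 5.31 and 4.42 at P7, and 28.1, 21.4 and 19.3 in the adult (log2 fold change 3.15 ± 0.28 SE, adjusted p = 7.70e-08 by limma). The P7 values of H2-D1 overlapped the fetal ones. Leukocyte markers were higher in sum beside this list, and their part was not tested.

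Immediate early genes, which respond within minutes to stress and to tissue dissociation, rose in 16 of 22 and fell in 0 (median 1.61). With total-count scaling 11 were higher and 1 lower, and without E18.5 mononucleated replicate 1 there were 10 higher and 3 lower. Ier2 had 29.9, 61.3 and 54.2 CPM at E18.5, 69.7, 62.6 and 53.2 at P7, and 285, 341 and 386 in the adult (log2 fold change 2.85 ± 0.26 SE, adjusted p = 1.30e-07 by limma), Zfp36, an mRNA decay factor, 23.1, 56.1 and 69.5 CPM at E18.5, 43.1, 50.2 and 45.1 at P7, and 300.4, 461 and 381 in the adult (log2 fold change 3.06 ± 0.37 SE, adjusted p = 3.57e-06 by limma), Junb 24.6, 55.3 and 69.4 CPM at E18.5 and 400.4, 465 and 447 in the adult and the phosphatase gene Dusp1 139, 208 and 213 CPM at E18.5 and 748, 1010 and 1087 in the adult. In each gene the 3 adult libraries lay above every E18.5 library; the P7 libraries of Ier2 and Zfp36 overlapped the fetal ones. The labels do not say how the cells of each age were dissociated, so age and handling cannot be told apart for this list.

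The level at P7 was set against the midpoint between E18.5 and adult on the log2 scale, a contrast orthogonal to the net change that shares its libraries. In all, 1461 genes lay above the midpoint (12.1%) and 867 below it (7.2%). Without E18.5 binucleated replicate 1 the counts were 2221 and 1639, and without P7 mononucleated replicate 3 they were 997 and 573. Replication genes lay above it in 50 of 55 and G2/M genes in 56 of 64, so most of their fall on the log2 scale came after P7. In CPM the order can differ: by the values above, Ccnb1 and Cdc20 lost more before P7 and Top2a more after it. From E18.5 to P7 the median log2 change was 0.27 for replication and −0.56 for G2/M genes, against −2.78 and −6.39 to the adult. Over all genes the median absolute change was 0.33 from E18.5 to P7, 0.51 from P7 to the adult and 0.68 over the whole span.

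Ketone and branched-chain amino acid genes lay below the midpoint in 15 of 23 and above it in 0, with a median change of −0.17 to P7 and 1.46 from then to the adult. Heat shock genes were below it in 16 of 26, hypoxia genes in 12 of 21 and glycolysis genes in 10 of 25. The 6 genes below the midpoint with the smallest adjusted p were Bdh1 (−6.22 ± 0.25 SE, limma adjusted p = 4.14e-10), Kyat3, a kynurenine aminotransferase (−2.69), the glutathione transferase Gstm1 (−2.52), the glycine enzyme gene Gcat, Slc2a1 (−1.99) and the transcription factor Klf15 (−2.30). Klf15, which controls amino acid and lipid use in heart, had 64.6, 57.5 and 70.4 CPM at E18.5, 23.4, 19.7 and 23.2 at P7, and 160.2, 227 and 168 in the adult. Its P7 libraries were the lowest.

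Genes above the midpoint with small adjusted p included Nrep (3.06 ± 0.14 SE, limma adjusted p = 1.08e-09), Klhdc8b, a midbody protein (2.47), the secreted protease Htra1 (1.66), Rrm2 (2.69) and the uncoupling protein gene Ucp2 (3.78). Ucp2 had 5.04, 6.31 and 9.61 CPM at E18.5, 394, 354 and 368 at P7, and 87.2, 131 and 112 in the adult. It was highest at P7 without overlap with either end. Nrep, a neuronal regeneration protein, had 165, 149 and 147 CPM at E18.5, 581, 595 and 704 at P7, and 36.6, 29.2 and 44.7 in the adult, highest at P7 and lowest in the adult.

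The same net change was measured in binucleated cells, in 6 other libraries. Both comparisons share the estimate of spread. Same-numbered adult libraries of the classes also deviated together from their group means (r of 0.26 to 0.33). The binucleated comparison therefore cannot be taken as an independent repeat. There 3409 genes were higher in the adult (28.3%) and 3539 lower (29.4%). Across genes, which are not independent replicates, the log2 fold changes of both classes correlated at 0.922. The test of the difference between classes called 19 genes (0.158%), all with a more positive change in mononucleated cells and 0 in the other direction, with 807 at an unadjusted p below 0.05. Cenpf changed by 0.61 in mononucleated and −1.67 in binucleated cells (difference 2.28 ± 0.21 SE, limma adjusted p = 1.14e-04). Top2a fell in both, with changes of −6.23 and −8.49 (difference 2.26 ± 0.33 SE, limma adjusted p = 0.00785), and so did Knstrn, a kinetochore protein of the spindle, with −6.51 and −9.45 (difference 2.94 ± 0.45 SE, limma adjusted p = 0.0115). On the log2(CPM + 2) scale the difference of Top2a was 0.942 (limma adjusted p = 0.254). Neither Top2a nor Knstrn was called with voom weights or within the 4 groups of the contrast. Ucp2, given below, was also not called within those 4 groups (limma adjusted p = 0.0962).

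Ndn, the imprinted growth suppressor necdin, changed by −1.86 and −4.36 (difference 2.51 ± 0.33 SE, limma adjusted p = 0.0038), Ucp2 by 4.0 and 1.48 (difference 2.52 ± 0.40 SE, limma adjusted p = 0.0129), and Dcn, the matrix proteoglycan decorin of fibroblasts, by 2.46 and −2.10 (difference 4.56 ± 0.73 SE, limma adjusted p = 0.0144). The remaining 13 genes, named after their values were seen, include Laptm5, C1qc, Pdgfrb, Postn and Igfbp7, known from leukocytes, pericytes, fibroblasts or endothelium. Summed endothelial markers were at 29.9 to 48.9 CPM in mononucleated and 176 to 199 CPM in binucleated libraries at E18.5, and at 150 to 193 and 179 to 211 CPM in the adult. Summed leukocyte markers were at 3.67 to 3.89 and 14.6 to 40.1 CPM at E18.5, and at 19.01 to 31.4 and 14.4 to 19.1 CPM in the adult. The 12 fibroblast markers other than Gsn summed to 64.9 to 116 and 342 to 963 CPM at E18.5, and to 105 to 144 and 70.4 to 132 CPM in the adult. The part of these cells in the difference was not tested. Without adult mononucleated replicate 2 the number of genes with the more positive change in mononucleated cells was 8, with Dcn and Ucp2 not called (limma adjusted p = 0.0713 and 0.0648), and without adult binucleated replicate 1 it was 10, with Dcn not called (adjusted p = 0.0528 by limma). Without E18.5 mononucleated replicate 1 there were 33 and 0 in the other direction, without E18.5 mononucleated replicate 3 there were 34 and 2, and without E18.5 binucleated replicate 1, which stands apart from its group, 31 and 3. Without E18.5 binucleated replicate 3 there were 20 and 14, so the single direction did not hold. The test takes mononucleated and binucleated libraries of 1 number as unpaired; with those of each age paired, it called 26 and 1.

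**Figure D4:**
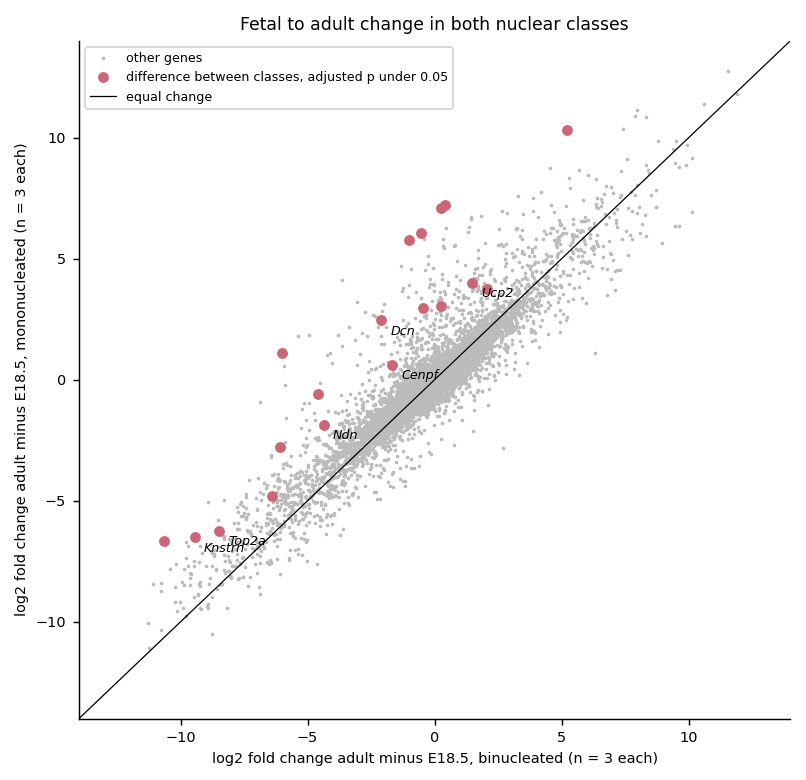
The log2 fold change from E18.5 to adult of each of 12048 genes in binucleated cells (x axis) and mononucleated cells (y axis), 3 libraries per group, with the line of equal change. The 19 genes whose change differed between classes at a limma adjusted p below 0.05 are drawn large and all lie above the line; Cenpf had 0.61 in mononucleated and −1.67 in binucleated cells.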

How the data were processed

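Cells were sorted into Trizol-LS, and libraries were made with a stranded mRNA kit and SMARTer amplification, per the labels' protocols; the submitters' processing notes name STAR, limma and mm9. The authors deposited 1 table of log2 values per library for 12048 genes. Each value has the form log2 of a whole count plus 0.5, times 1 factor per library. Counts were recovered to within 0.001 of whole numbers and scaled to CPM by those factors. Amplified reads carry no molecular identifiers, so bounds set at 3 counts cover counting error only. Filters, the counter and the handling of reads that fit several genes or strands were not given in the sources used here. Counts of replicate pairs gave a chi-square of at least 13.7 per degree of freedom, more than counting error alone gives.

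limma 3.58.1 (R 4.3.3) was fitted to the deposited log2 values with 6 group means over 18 libraries (12 residual degrees of freedom) and an intensity trend; tests were two-sided, with Benjamini-Hochberg adjustment over all genes in each of 3 contrasts. The fit was tested on simulated counts with a common spread for all genes and no library apart from its group. That test does not cover the unequal spread of the real libraries. Symbols came from GENCODE M21 for 11927 genes.

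The members, the 50 gene lists (1391 of 1499 genes listed) and the tests were chosen with earlier results of these data known. Named genes are the 12 per direction with the largest change (called, ages not overlapping, mean level above the lowest 25% of genes), as many as 4 called members of each list, taken by adjusted p, the most abundant marker of other cells, and 6 per direction in the other contrasts. Members beyond this, such as partners in pairs or counts of 5 or fewer, were named after their values were seen; some genes are not reported here. Alternatives were another scaling, weights, offset, filter, trend or size threshold, the replicate block, and each library left out in turn.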

Additional observations from a re-analysis of the deposited data

Results flagged for a closer look

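The change from E18.5 to adult differed between mononucleated and binucleated cells, by a test of the difference itself, in 19 genes. Of these, 6 are named by the rule: Cenpf (difference of the log2 changes 2.28), Dcn (4.56), Knstrn (2.94), Ndn (2.51), Top2a (2.26) and Ucp2 (2.52). The kinetochore gene Cenpf had 4089 recovered counts over the 3 E18.5 mononucleated and 10086 over the 3 E18.5 binucleated libraries, and 4314 and 2354 in the adult. Dcn had 296 and 4129 counts at E18.5 and 996 and 741 in the adult, so the classes stood far apart in the fetus and close together in the adult. Knstrn had 34 adult counts in mononucleated and 9 in binucleated cells, and Top2a 84 and 21.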

How the results depend on the processing

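Of 205 named genes of the net change, 166 kept direction and call in every alternative run, and 39 did not in at least 1, most often the test against a 2-fold change. Ndufv1 was the only reversed value (−0.018, adjusted p = 0.867, with quantile normalization). All 12 named genes of the midpoint comparison kept their calls, and 5 of 6 of the class difference lost theirs in at least 1 alternative. Causes were not tested.

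The net counts of 3151 higher and 3336 lower became 967 and 1211 tested against a 2-fold change and 1951 and 5119 with total-count scaling, a choice made after the data were seen. Leaving out single libraries gave 2778 to 3836 higher and 2946 to 3977 lower.

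The class difference had 19 genes higher and 0 lower. It had 11 and 2 with quantile normalization, 88 and 11 with array weights, 62 higher with log2(CPM + 2), 9 without the lowest 25% of genes, 37 and 1 without the trend, 4 against 2-fold, 1 lower with median-ratio size factors, and 8 to 34 higher and 0 to 14 lower with a library left out.

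The midpoint counts of 1461 above and 867 below became 3083 and 2366 with array weights, 204 and 37 against 2-fold, 934 above without the lowest 25% of genes and 1388 below within the 3 mononucleated groups. With a library left out they were 997 to 2221 above and 573 to 1639 below, both highest without E18.5 binucleated replicate 1 and both lowest without P7 mononucleated replicate 3.

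With the replicate number as a block, 3095 genes were higher and 3260 lower, 18 and 0 differed between classes, and 1407 lay above and 820 below the midpoint. Same-numbered E18.5 and adult mononucleated libraries did not deviate together (r of −0.05, 0.00 and −0.04), so no pairing was used. Same-numbered mononucleated and binucleated libraries correlated at 0.26 to 0.33 in the adult but at 0.05 to 0.16 at E18.5. With such libraries paired within each age, an alternative chosen after the data were seen, 26 genes were higher and 1 lower in the class difference.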

Other observations

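Genes that respond to load on the heart rose in 11 of 18 and fell in 3: Bmp10, Myh7 and Nppa; the number that rose was 7 with total-count scaling and 7 without adult mononucleated replicate 2. Bmp10, a trabecular growth factor, was at 4.87, 6.92 and 5.51 CPM at E18.5 and at 0 counts in the adult, at least 95.01-fold lower, while Fhl2, a LIM protein of the sarcomere, had 1007, 1017 and 958 CPM at E18.5, 1430, 1626 and 1921 at P7, and 2356, 2725 and 2412 in the adult (log2 fold change 1.33 ± 0.14 SE, adjusted p = 7.28e-07 by limma). Genes of the hypoxia response rose in 8 of 21 and fell in 9 (5 and 12 with total-count scaling), against 26.2% and 27.7% of all genes tested. Epas1, which encodes HIF-2 alpha, had 6.32, 4.63 and 10.5 CPM at E18.5, 71.9, 58.5 and 43.6 at P7, and 129, 58.9 and 136 in the adult (log2 fold change 3.90 ± 0.37 SE, adjusted p = 1.66e-07 by limma), and Hif3a 86.03, 125 and 90.2 CPM at E18.5, 5.69, 1.96 and 2.62 at P7, and 1.098, 2.35 and 0.796 in the adult (log2 fold change −6.25 ± 0.56 SE, adjusted p = 1.08e-07 by limma). These 2 subunits of 1 factor family ran in opposite directions, with the E18.5 and adult libraries apart in both. Of 36 proteasome and chaperonin genes 4 rose and 7 fell, 0 of them by 2-fold or more, lower shares than over all genes tested (26.2% and 27.7%). With total-count scaling 0 rose and 18 fell, with quantile normalization 1 and 17, and without E18.5 binucleated replicate 1 it was 9 and 12. The chaperonin subunits Cct5, Cct3 and Cct6a fell by 1.44-fold, 1.42-fold and 1.45-fold, and Psmd12 rose by 0.43 on the log2 scale, a difference that total-count scaling did not keep (0.03, adjusted p = 0.758).

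Among markers of other cells, Fbln1 and Gsn, both on the fibroblast list, went opposite ways. Fbln1 had 15.8, 13.8 and 17.6 CPM at E18.5, 125, 52.5 and 98.9 at P7, and 62.1, 83.2 and 94.5 in the adult (log2 fold change 2.33 ± 0.31 SE, adjusted p = 9.55e-06 by limma) and Gsn 617, 652 and 636 CPM at E18.5, 218, 228 and 219 at P7, and 48.5, 83.2 and 83.5 in the adult (log2 fold change −3.19 ± 0.24 SE, adjusted p = 1.16e-08 by limma). Fabp4, the most abundant endothelial marker, had 9.65, 5.01 and 5.05 CPM at E18.5, 6.64, 5.08 and 5.702 at P7, and 25.7, 59.8 and 36.9 in the adult (log2 fold change 2.61 ± 0.38 SE, adjusted p = 1.98e-05 by limma), and Lyz2, of the leukocyte list, 3.16, 1.57 and 2.302 CPM at E18.5, 17.9, 14.9 and 25.7 at P7, and 7.30, 6.91 and 10.1 in the adult, highest at P7. Of 8 pericyte and smooth muscle markers 3 rose (Des, Pdgfrb and Rgs5) and 2 fell (Acta2 and Cspg4). Des was the most abundant of this list at E18.5 and in the adult, and Acta2 is also on the fetal sarcomere list. Of 11 atrial markers 4 rose (Kcnj3, Kcna5, Stard10 and Tbx5) and 5 fell by at least 2-fold (Myl4, Bmp10, Dkk3, Myl7 and Nppa). The 11 atrial markers summed to 601 to 848 CPM at E18.5 and 124.5 to 190 CPM in the adult. Over all genes tested 26.2% rose and 27.7% fell. Hba-a1, an alpha globin gene, had 26.6, 29.9 and 18.2 CPM at E18.5, 13.2, 5.69 and 5.29 at P7, and 0, 6.01 and 1.59 in the adult. Across genes, the log2 fold change had a Spearman rho of −0.02 with transcript length, 0.01 with GC content and 0.19 with mean level.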
